A study of Mus musculus with 17 samples.

Results

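The interferon-induced transmembrane (Ifitm) family was followed in RNA of the whole mouse colon through 5 of its genes, Ifitm1, Ifitm2, Ifitm3, Ifitm5 and Ifitm6. They were taken by name from all genes of the array after results of these arrays were known. Their levels and differences are therefore given as descriptions, with no test. Probes that are not controls and bear these names numbered 4 of 56605 on the array, 1 each for Ifitm1 (A_55_P2146254), Ifitm3 (A_55_P2762554), Ifitm5 (A_52_P273812) and Ifitm6 (A_51_P294555). The authors' table of log2 values held 36695 probes, 3 of them from the family, since the Ifitm5 probe was not among them. No probe bore the name of Ifitm2 (0 probes) or its RefSeq accession (0 probes), and its expression is not analysed here.

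The study asked what the pregnane X receptor (PXR, gene Nr1i2) does when its rodent ligand PCN (pregnenolone carbonitrile) is given, and the colon arrays belong to that design. All mice were male and on the C57Bl6/J background, with free access to food. Wild-type (WT) mice were purchased at 6 weeks of age and kept for 2 weeks, whereas mice without the receptor (Pxr-/-, backcrossed on the same strain) were bred in the authors' own facility, so that genotype and colony cannot be told apart. PCN groups received 100 mg/kg PCN in corn oil by daily intraperitoneal injection for 4 days, CONT groups received corn oil without PCN, and tissue was taken 6 h after the last injection. The arrays fell into WT CONT (n = 4, replicates 2 to 5), WT PCN (n = 4, replicates 1 to 4), Pxr-/- CONT (n = 5, replicates 1 to 5) and Pxr-/- PCN (n = 4, replicates 1 to 4), 17 in all. Each array was hybridised with 1 Cy3-labelled sample, and the labels treat each as a separate sample of its group. Because the tissue was the whole colon wall in bulk, fewer cells of a type and less RNA per cell cannot be told apart.

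A total of 4 arrays formed pairs that were near-identical although their labels differ. Which array of a pair is at odds with its label was not tested. WT PCN 4 and Pxr-/- PCN 2 differed over all probes with an SD of 0.165 (log2), and WT PCN 3 and Pxr-/- CONT 2 with an SD of 0.233. The other 134 of 136 pairs of arrays, replicates of 1 group included, differed with SDs of 0.264 to 0.600. These near-identical pairs cross the labelled genotype, and the second crosses the labelled treatment as well, so the differences of the genes and gene lists are given with all 17 arrays and with the 13 that remain without them. The targeted gene, Nr1i2, ranged from 11.83 to 12.45 in WT CONT, 11.25 to 12.29 in WT PCN, 10.54 to 11.45 in Pxr-/- CONT and 11.10 to 12.09 in Pxr-/- PCN. Its groups overlapped under PCN, but the sources used here do not say which part of the gene was deleted, so its probe does not check the labels. On each array, 62.7 to 71.0% of the probes were well above background, and the number of arrays limits the precision of what follows.

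IFITM proteins are small membrane proteins with a CD225 (dispanin) domain. They hinder the entry of enveloped viruses by acting on the membrane at which virus and cell would fuse. Interferon acts through its receptor on factors that bind the interferon-stimulated response element (ISRE) of target genes, Ifitm1, Ifitm2 and Ifitm3 among them. IFITM1 sits largely at the plasma membrane, whereas IFITM2 and IFITM3 are found in endosomes. IFITM3 also keeps a basal level in epithelium and in stem cells without interferon. Ifitm5 is a bone gene of osteoblasts, and Ifitm6 is known from myeloid cells, monocytes above all.

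The 5 genes lie next to each other on chromosome 7 of GRCm38.p6, in the RefSeq annotation, at 140948958 to 140950243 (Ifitm5), 140954837 to 140959686 (Ifitm2), 140967429 to 140969827 (Ifitm1), 141009590 to 141010744 (Ifitm3) and 141015812 to 141016892 (Ifitm6). The scanner files place the probes on the older build mm9, at chr7:148155659-148155718 (plus strand) for Ifitm1, chr7:148195489-148195548 (minus strand) for Ifitm3, chr7:148135949-148136008 (minus strand) for Ifitm5 and chr7:148201714-148201773 (minus strand) for Ifitm6. Genes of 1 family can share a probe's signal, so part of each probe is shown, 30 bases in the sense the array prints, with the polyadenylation signal AATAAA in capitals where the probe holds it.
Ifitm1: catggtggactcAATAAAgtgcacgtgctg
Ifitm3: cacagtggattcAATAAAgtgcacttgata
Ifitm6: ccatgcactgtcttcgtgaagaaagcattc
Ifitm5: tgctctggtctgtcttcagcacgatgtacc
The Ifitm1 and Ifitm3 probes both ran over AATAAA and were the closest pair of the 4, with 40 of 57 aligned bases identical (70.2%) and a longest shared run of 14 bases. The other pairs of these probes were identical at 35.2 to 42.3% of aligned bases. How much of one gene's RNA binds the other gene's probe was not tested.

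Interferon acts on a promoter through the ISRE, so the letters next to each start site are shown as well. RefSeq promoter sequences were searched on both strands for the ISRE core (GAAA, any 2 bases, GAAA), which was present in 2.98% of 32851 mouse promoters within 250 bases upstream and in 3.44% when the 50 bases after the start were added. The 80 bases upstream of each start, and the first 30 bases of Ifitm3, are given 5′ to 3′ with the core in capitals.
Ifitm1, chr7:140967996-140968075, plus strand: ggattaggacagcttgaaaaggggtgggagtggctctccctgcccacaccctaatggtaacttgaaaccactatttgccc
Ifitm2, chr7:140955962-140956041, minus strand: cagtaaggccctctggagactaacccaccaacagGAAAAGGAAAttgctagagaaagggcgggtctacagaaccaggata
Ifitm3, chr7:141010745-141010824, minus strand: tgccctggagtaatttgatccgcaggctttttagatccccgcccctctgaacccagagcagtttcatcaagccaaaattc
Ifitm3 from its start, chr7:141010715-141010744, minus strand: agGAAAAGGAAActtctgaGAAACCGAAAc
Ifitm6, chr7:141016893-141016972, minus strand: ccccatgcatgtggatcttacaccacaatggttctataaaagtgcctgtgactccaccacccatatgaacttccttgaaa
Ifitm2 held the core at bases -46 to -37, and Ifitm3 held it downstream of its start, at bases 3 to 12 and 20 to 29. The listed starts of Ifitm1 and Ifitm2 lie within the intervals of these genes, not at their 5′ ends, so their windows, the Ifitm2 core included, may not be the promoters in use. A second interferon motif, the gamma-activated site TTCNNNGAA (7.02% of promoters upstream), was found in Ifitm6 at bases -10 to -2, and in Ifitm3 at bases 14 to 22, where it overlaps the second core. In Ifitm6 the TATA box letters TATAAA (12.4% of promoters) lay at bases -46 to -41. The nuclear receptor half-site AGGTCA, which 14.0% of promoters hold, was found in none of the 5 windows. Other forms of the half-site were not searched, so these windows may hold half-site letters that PXR can bind. These matches describe letters in a window, not sites in use.

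Ifitm1 was higher after PCN in both genotypes. Its level (log2) was 11.93, 12.14, 11.77 and 12.17 in WT CONT and 13.03, 12.92, 11.97 and 12.59 in WT PCN. In Pxr-/- CONT it was 11.85, 11.91, 11.87, 11.85 and 11.93, and in Pxr-/- PCN 12.74, 12.62, 12.85 and 12.97. In Pxr-/- mice all 4 PCN arrays lay above all 5 CONT arrays, with a gap of 0.69. In WT mice 3 of the 4 PCN arrays lay above all CONT arrays, and the exception was WT PCN 3, of the near-identical arrays. WT CONT averaged 12.00 ± 0.19 and WT PCN 12.63 ± 0.48 (SD, n = 4 each). Pxr-/- CONT averaged 11.88 ± 0.035 (SD, n = 5) and Pxr-/- PCN 12.80 ± 0.15 (SD, n = 4). The order from low to high was Pxr-/- CONT, WT CONT, WT PCN and Pxr-/- PCN, in which each group overlapped the next, WT CONT and WT PCN included. The difference of PCN from CONT was 0.62 (SE 0.17, log2) in WT and 0.91 (SE 0.16) in Pxr-/-. With the near-identical arrays left out, the same differences were 0.97 (SE 0.11) and 0.98 (SE 0.10). The Pxr-/- groups differed from the WT groups by -0.12 without PCN and by 0.17 under PCN, the latter becoming -0.12 without the near-identical arrays.

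Ifitm3, the member best known for blocking influenza virus, was also higher after PCN, by less. Its level (log2) was 13.20, 13.40, 13.50 and 13.56 in WT CONT and 13.92, 13.88, 13.89 and 13.87 in WT PCN. In Pxr-/- CONT it was 13.55, 13.80, 13.73, 13.75 and 13.13, and in Pxr-/- PCN 14.09, 13.92, 13.77 and 14.10. The WT groups did not overlap, with a gap of 0.31, and the 4 WT PCN arrays spanned 13.87 to 13.92. In Pxr-/- mice 3 of the 4 PCN arrays lay above all CONT arrays, and Pxr-/- CONT 5 was the lowest of the 17. WT CONT averaged 13.41 ± 0.16 (SD, n = 4) and Pxr-/- CONT 13.59 ± 0.28 (SD, n = 5). WT PCN averaged 13.89 ± 0.021 and Pxr-/- PCN 13.97 ± 0.155 (SD, n = 4 each). In this order, low to high, WT CONT overlapped Pxr-/- CONT and WT PCN overlapped Pxr-/- PCN. The difference of PCN from CONT was 0.47 (SE 0.13) in WT and 0.38 (SE 0.12) in Pxr-/-. Over the 13 other arrays it was 0.49 and 0.45, and the Pxr-/- groups then lay apart by a gap of 0.024. Pxr-/- differed from WT by 0.18 without PCN and by 0.08 under PCN, and by 0.13 and 0.09 without the near-identical arrays.

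Ifitm6 was higher after PCN and lower in Pxr-/- mice. Its level (log2) was 7.51, 7.41, 7.46 and 7.76 in WT CONT and 8.76, 8.68, 7.29 and 7.82 in WT PCN. In Pxr-/- CONT it was 7.05, 7.16, 7.02, 7.12 and 7.14, and in Pxr-/- PCN 8.0, 7.67, 8.17 and 7.70. All 4 Pxr-/- PCN arrays lay above all 5 Pxr-/- CONT arrays, with a gap of 0.51, while in WT 3 PCN arrays lay above all CONT arrays and WT PCN 3 lay below all of them. All 5 Pxr-/- CONT arrays also lay below all 4 WT CONT arrays, with a gap of 0.24. Pxr-/- CONT averaged 7.10 ± 0.061 (SD, n = 5) and WT CONT 7.54 ± 0.16 (SD, n = 4). Pxr-/- PCN averaged 7.89 ± 0.24 and WT PCN 8.14 ± 0.71 (SD, n = 4 each). In this order, low to high, WT CONT overlapped Pxr-/- PCN, and Pxr-/- PCN overlapped WT PCN. The difference of PCN from CONT was 0.60 (SE 0.24) in WT and 0.79 (SE 0.23) in Pxr-/-. Over the 13 other arrays it was 1.18 (SE 0.13) in WT and 0.88 (SE 0.11) in Pxr-/-. Pxr-/- differed from WT by -0.44 without PCN and by -0.25 under PCN, and by -0.45 and -0.76 without the near-identical arrays, when all 3 Pxr-/- PCN arrays lay below both WT PCN arrays.

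**Figure D1:**
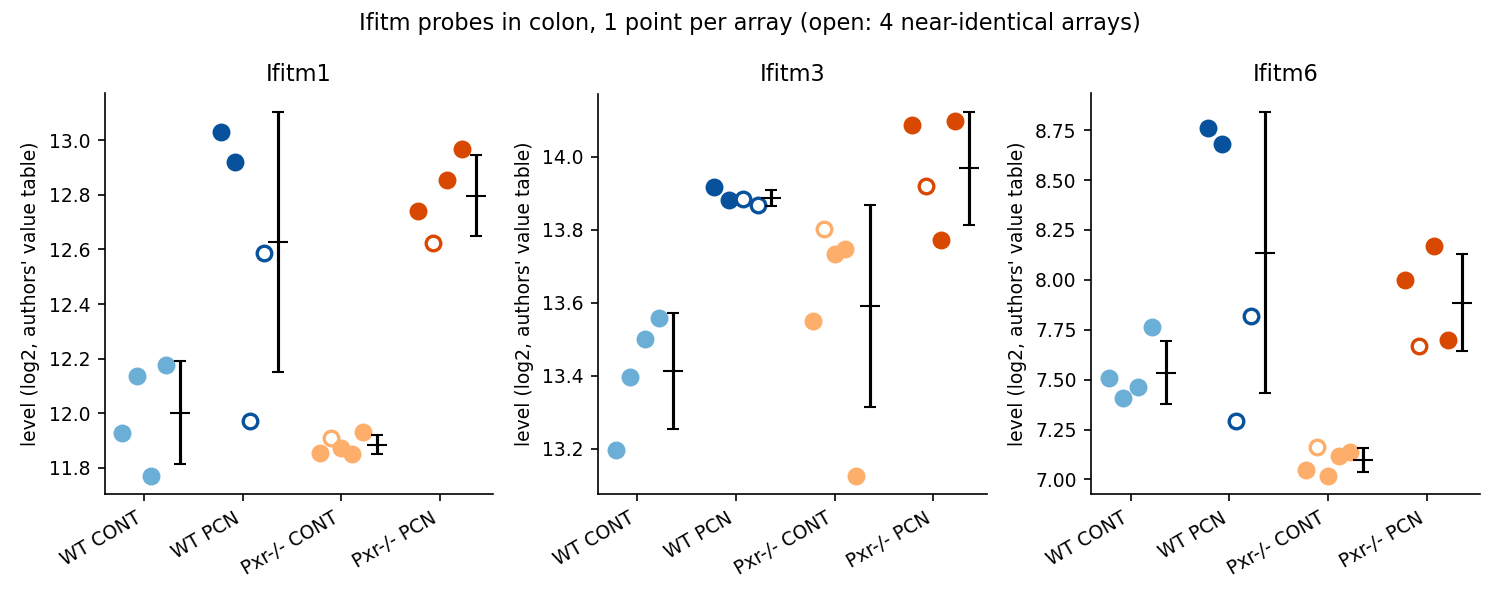
Level (log2, authors' value table) of the Ifitm1, Ifitm3 and Ifitm6 probes, 1 point per array, with each group's mean (tick) and SD (vertical line) beside its points. Open points are the near-identical arrays. The mean of each PCN group lies above that of the CONT group of its genotype in each panel. WT PCN 3 lies within the range of WT CONT for Ifitm1 and below it for Ifitm6. The near-identical arrays WT PCN 3 and 4 are the lowest of their group for Ifitm1 (11.97 and 12.59) and Ifitm6 (7.29 and 7.82). The Pxr-/- CONT arrays lie below the WT CONT arrays for Ifitm6.

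Ifitm5 was not well above background on most arrays. Its scanner signal was 26 to 52 on the 17 arrays, against a background of 17 to 28, and it was well above background on 2 of 17 arrays, both WT PCN. The signal was 40.5 to 46 in WT CONT, 26 to 52 in WT PCN, 35 to 39 in Pxr-/- CONT and 36 to 41 in Pxr-/- PCN, so that PCN and CONT overlapped in both genotypes. On normalized scanner values with no filter, its difference of PCN from CONT was -0.01 (log2) in WT and 0.02 in Pxr-/-. By contrast the Ifitm1 probe (signal 3343 to 10164), the Ifitm3 probe (8584 to 19107) and the Ifitm6 probe (122 to 526) were well above background on 17 of 17 arrays, and none was saturated. The measured markers of osteoblasts, the cells in which Ifitm5 is known to act, had median differences of 0.05 in WT and -0.26 in Pxr-/- after PCN (3 of 4 genes measured), and 0.19 and -0.32 over 13 arrays.

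Averaged over both genotypes, the difference of PCN from CONT was 0.77 (SE 0.12, log2) or 1.70-fold for Ifitm1, 0.43 (SE 0.088) or 1.34-fold for Ifitm3 and 0.70 (SE 0.17) or 1.62-fold for Ifitm6. Averaged over both treatments, the difference of Pxr-/- from WT was 0.03 (SE 0.12) for Ifitm1, 0.13 (SE 0.088) for Ifitm3 and -0.34 (SE 0.17), that is 1.27-fold lower, for Ifitm6. PCN thus went with a larger difference than genotype for each of the 3 genes. Over the 13 other arrays the PCN differences were 0.98 (SE 0.075) or 1.97-fold, 0.47 (SE 0.11) or 1.38-fold and 1.03 (SE 0.086) or 2.04-fold, in the same order of genes. The genotype differences were then -0.12 (SE 0.075) for Ifitm1, 0.11 (SE 0.11) for Ifitm3 and -0.61 (SE 0.086), 1.52-fold lower, for Ifitm6. The PCN and genotype differences share the same arrays, the CONT arrays included, and are set side by side on that basis. The PCN difference in Pxr-/- minus that in WT was 0.29 (SE 0.24) for Ifitm1, -0.10 for Ifitm3 and 0.19 for Ifitm6, and 0.00, -0.04 and -0.31 without the near-identical arrays.

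**Figure D2:**
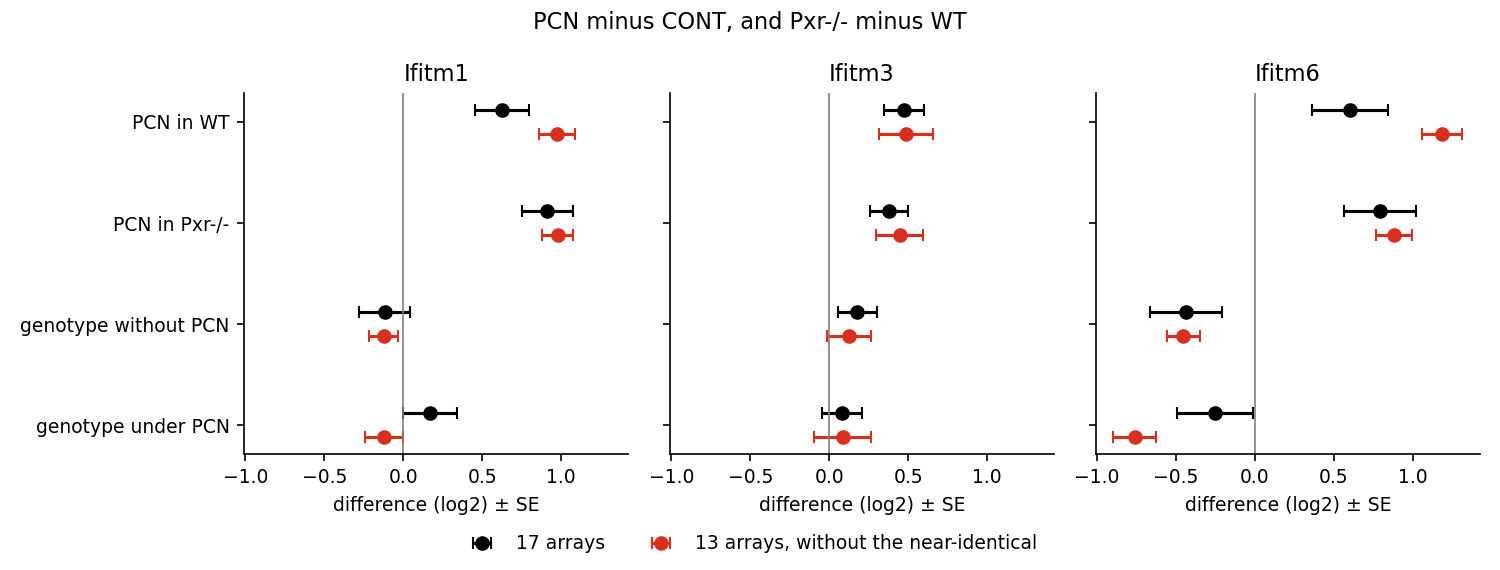
Difference (log2, with SE) of PCN from CONT in each genotype and of Pxr-/- from WT in each treatment for the 3 Ifitm probes, with all 17 arrays (black) and with the 13 that remain without the near-identical ones (red). The PCN differences lie above 0 in both genotypes (0.62 in WT and 0.91 in Pxr-/- for Ifitm1 with 17 arrays), and the genotype differences of Ifitm6 lie below 0 (-0.44 without PCN and -0.25 under PCN).

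Taken over both genotypes together, 7 of 8 PCN arrays lay above all 9 CONT arrays for Ifitm1, 7 of 8 for Ifitm3 and 5 of 8 for Ifitm6. At least 7 of 8 did so for 0.221% of all probes and at least 5 of 8 for 1.37%, while all 8 did so for 0.0136% of probes, none of the family. Over the 13 other arrays 5 of 5 PCN arrays lay above all CONT arrays for Ifitm1 and for Ifitm3, as for 0.349% of probes, and 4 of 5 for Ifitm6, where 1.65% of probes had at least 4. Within a genotype, all PCN arrays lay above all CONT arrays for 1.62% of probes in WT (Ifitm3 among them) and 1.82% in Pxr-/- (Ifitm1 and Ifitm6), or 8.08% and 4.5% without the near-identical arrays (Ifitm1, Ifitm3 and Ifitm6 in both). All Pxr-/- CONT arrays lay below all WT CONT arrays for 3.43% of probes, Ifitm6 among them, and for 4.45% over the 13 arrays. Under PCN the same was seen for 0.804% of probes, none of the family, and for 10.6% over the 13 arrays, with Ifitm6 among them. Among 36695 probes, 75 had a larger averaged PCN difference than Ifitm1, 107 than Ifitm6 and 306 than Ifitm3, and without the near-identical arrays the numbers were 91, 81 and 494.

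Across all probes, a call meant a Benjamini-Hochberg adjusted p (limma) of at most 0.05 and a fold above 1.5. With all arrays 6 probes (0.0164%) were called for PCN averaged over genotypes, Ifitm1 among them. That call was lost with the wash bath or the slide as a term, and when any array other than WT PCN 3 was left out. For PCN in Pxr-/- 2 probes were called (0.00545%), none of the family. For PCN in WT 0 probes were called (limma, 2120 at an unadjusted p under 0.05), and for genotype averaged over treatments 0 were called (3868 at an unadjusted p under 0.05). Without the near-identical arrays 96 probes (0.262%) were called for PCN averaged over genotypes, 46 (0.125%) for PCN in WT and 28 (0.0763%) for PCN in Pxr-/-, and Ifitm1 and Ifitm6 were among each. Ifitm6 was also among the 127 probes (0.346%) called for genotype averaged over treatments, as 1 of 77 lower ones (0.21%, against 0.136% called higher). For genotype under PCN 9 probes were called (0.0245%), for genotype without PCN 8 (0.0218%) and for the difference between the PCN effects 1 (0.00273%), none of the family. Ifitm3 was called in none of these comparisons. The genes were chosen with these contrasts in view, so nothing is read from these counts.

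The slides had been washed in 2 baths, and the PCN difference of Ifitm1 and Ifitm6 was above 0 within each. For Ifitm1 it was 0.46 in bath 1 and 1.06 in bath 2 in WT, and 0.88 and 0.96 in Pxr-/-. For Ifitm6 it was 0.47 and 1.14 in WT, and 0.85 and 0.74 in Pxr-/-. For Ifitm3 it was 0.58 and 0.39 in WT, and 0.11 and 0.60 in Pxr-/-, so that the difference in Pxr-/- rested largely on bath 2. Without the near-identical arrays, with 1 PCN array left in 3 of these 4 comparisons, the WT and Pxr-/- differences were 0.89 and 0.99 in bath 1 and 1.06 and 0.96 in bath 2 for Ifitm1. They were 1.22 and 1.1, then 1.14 and 0.76 for Ifitm6, and 0.59 and 0.03, then 0.39 and 0.75 for Ifitm3. The genotype difference of Ifitm6 without PCN was -0.39 in bath 1 and -0.50 in bath 2, but under PCN it was -0.01 in bath 1 and -0.91 in bath 2, where WT PCN had 1 array. With 13 arrays it was -0.51 and -0.91 under PCN, each against 1 WT PCN array. Within slides, 6 pairs of a PCN and a CONT array of the same genotype could be formed, and PCN was higher in 6 for Ifitm3 and in 5 for Ifitm1 and Ifitm6. The exception for both was WT PCN 3 against WT CONT 3, at -0.17 and -0.11, and 3 of the 6 pairs held a near-identical array.

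Relatives of the family outside the cluster were Ifitm7, on chromosome 16 (13981702 to 13986867, GRCm38.p6), and Ifitm10, further along chromosome 7 (142325835 to 142373779). Both are members of the CD225 family. The A_51_P184928 probe of Ifitm7 differed between PCN and CONT by 0.45 in WT and 0.42 in Pxr-/-, and by 0.55 averaged over genotypes without the near-identical arrays. With all arrays PCN and CONT did not overlap in either genotype, with gaps of 0.034 in WT and 0.069 in Pxr-/-. All PCN arrays lay above all CONT arrays for 1.62% of all probes in WT and 1.82% in Pxr-/-. With both genotypes together PCN and CONT overlapped for this Ifitm7 probe. The other probe of Ifitm7, A_55_P2097161, differed by -0.05 and 0.09, and by -0.14 and 0.03 over 13 arrays, so the probes of this gene disagreed. The A_55_P2737882 probe of Ifitm10 differed by 0.10 and 0.16, or 0.18 and 0.13 over 13 arrays, and was well above background on 10 of 17 arrays. Its other probes, not in the value table, were well above background on 6 (A_52_P114905) and 0 (A_66_P126027) of 17 arrays. Over the measured dispanins outside the members (7 of 11 listed names), the median PCN difference was 0.03 in WT and 0.05 in Pxr-/- (0.15 and 0.08 over 13 arrays), and 0 were called for PCN averaged over genotypes (limma, 2 at an unadjusted p under 0.05). The measured neighbours of the cluster on chromosome 7 (8 of 9 listed names) had median PCN differences of 0.08 and 0.09 (0.10 and 0.06 over 13 arrays), with 0 called (2 at an unadjusted p under 0.05).

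**Figure D3:**
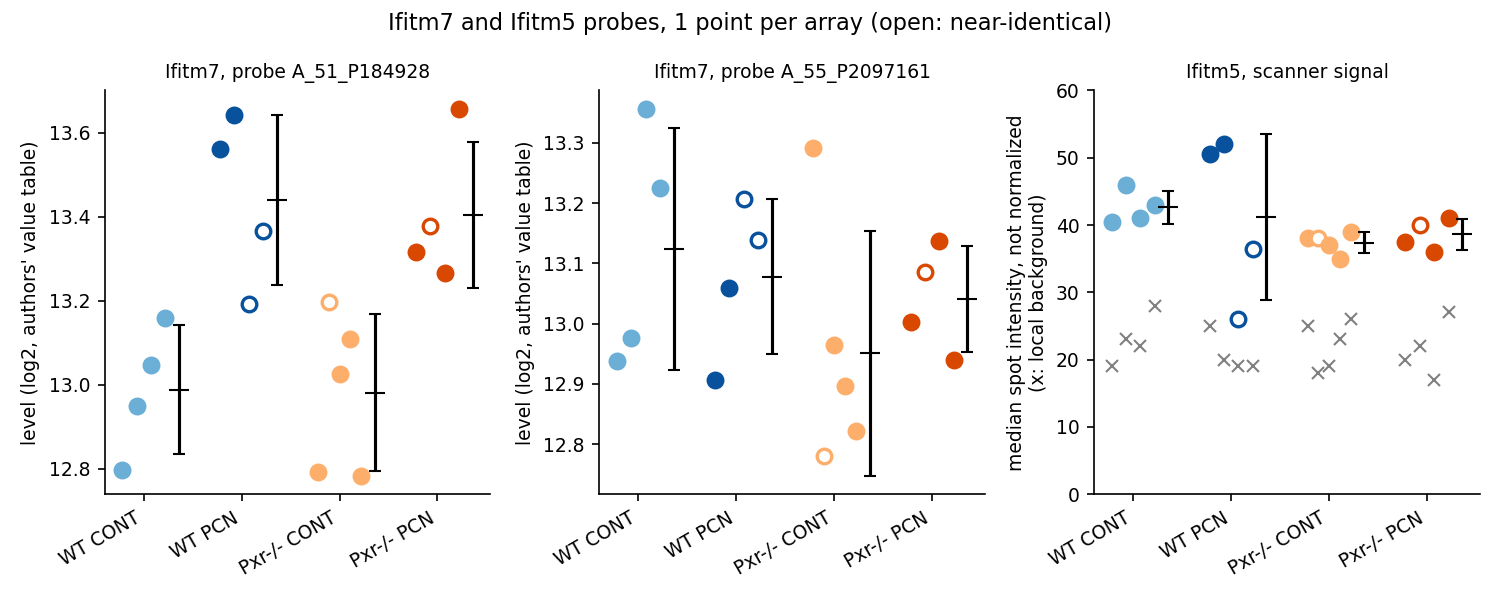
Levels (log2) of the probes of Ifitm7 by group and the scanner signal of the Ifitm5 probe beside its background, 1 point per array, with each group's mean (tick) and SD (line), and crosses for the background. The A_51_P184928 probe is higher in both PCN groups (0.45 in WT, 0.42 in Pxr-/-), the A_55_P2097161 probe is not (-0.05 and 0.09), and the Ifitm5 signal is 26 to 52 against a background of 17 to 28.

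Across the 17 arrays the levels of Ifitm1 and Ifitm6 followed each other with a Pearson r of 0.86 (Spearman rho 0.85), and with an r of 0.84 after each group's mean was removed. Over the 13 other arrays r was 0.87, and 0.08 after the group means were removed. Ifitm1 and Ifitm3 had an r of 0.65 (rho 0.66) over 17 arrays and of 0.03 within groups, and Ifitm3 and Ifitm6 an r of 0.44 (rho 0.51) and of -0.01 within groups. The A_51_P184928 probe of Ifitm7 had an r of 0.85 with Ifitm3, and of 0.68 within groups. These arrays share treatment groups, slides and baths, and the near-identical arrays count as separate points, so each r is a description.

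The genes whose level was most like that of a member over the 17 arrays were found by Pearson's r among all probes. For Ifitm1 they were Serpina3n (r = 0.95), an acute-phase serine protease inhibitor, Cxcl5 (0.95), a chemokine that attracts neutrophils, Selp (0.94), the P-selectin on which leukocytes roll along vessel walls, Ackr1 (0.93), the chemokine receptor of venules, and Stfa2l1 (0.93), of the stefin family. For Ifitm6 they were Hmox1 (0.98), which breaks down haem, Emilin2 (0.97), a matrix glycoprotein, Il1r2 (0.96), the interleukin-1 decoy receptor, Osm (0.96), oncostatin M, and Fcgr3 (0.95), an Fc receptor of myeloid cells. For Ifitm3 r was lower, from 0.86 to 0.83, and the genes were Panx1, Agpat2, Ifitm7, Pappa and Lrrtm2. Having been chosen by likeness, these genes are given as descriptions as well: Cxcl5 differed by 2.20 (SE 0.44, log2), Serpina3n by 1.23 (SE 0.23) and Hmox1 by 0.72 (SE 0.18), averaged over genotypes. Over the 13 other arrays the differences were 2.81, 1.52 and 1.07.

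Type I interferon-stimulated genes are the targets with which Ifitm1, Ifitm2 and Ifitm3 are usually grouped, and 20 of 20 on the list were measured. Their median PCN difference was 0.74 (log2) in WT, with 20 of 20 above 0, and -0.16 in Pxr-/-. Without the near-identical arrays the median in WT turned to -0.25, with 1 of 20 above 0, and that in Pxr-/- was 0.08. The Ifitm1 difference in WT, by comparison, went from 0.62 to 0.97. The median of all probes stayed within 0.02 of 0 in each of these contrasts.

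Genotype gave the other pattern. The interferon-stimulated genes were higher in Pxr-/- than in WT by a median of 0.97 averaged over treatments, with 20 of 20 above 0 and 0 called (limma, 19 at an unadjusted p under 0.05). By treatment the median was 1.61 without PCN and 0.56 under PCN, and 1.35 and 1.52 over 13 arrays. Without the near-identical arrays the averaged median was 1.31 and 14 of 20 were called higher, where 50 of 36695 probes were called higher in all. Among them were Isg15, a ubiquitin-like protein (2.53), Ifit1, which binds viral RNA (2.36), Oas2, which makes the activator of RNase L (2.79), and Irf7, the factor that amplifies interferon production (1.78). All 20 genes differed more with genotype than with PCN in both sets of arrays, whereas Ifitm1, Ifitm3 and Ifitm6 differed more with PCN.

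Isg15 shows how single arrays entered these values. It was at 11.53, 12.02, 11.52 and 12.41 in WT CONT, and at 12.01, 10.83, 15.45 and 13.86 in WT PCN. In Pxr-/- CONT it was at 13.74, 15.73, 15.37, 14.45 and 13.06, and in Pxr-/- PCN at 14.88, 13.85, 13.53 and 14.15. WT PCN 3 and 4, of the near-identical arrays, were the WT arrays at the level of the Pxr-/- arrays, and the same 2 arrays were the lowest of WT PCN for Ifitm1 and Ifitm6. The mean level of the whole list was 9.66 to 10.12 in WT CONT, 10.59 to 12.46 in Pxr-/- CONT and 10.81 to 11.71 in Pxr-/- PCN, and in WT PCN 12.38 on array 3, 11.16 on array 4, and 9.91 and 9.32 on arrays 1 and 2.

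The rest of the interferon pathway was taken by role. Of the ligands 3 of 7 were measured, with median PCN differences of -0.08 in WT and -0.01 in Pxr-/- (-0.03 in both over 13 arrays), and the 6 receptor genes had -0.01 and 0.06 (0.03 and 0.06), with 0 called in both lists for PCN averaged over genotypes (0 at an unadjusted p under 0.05). Among the 8 signal transducers Stat2 and Irf9, which bind the ISRE, were called higher in Pxr-/- without the near-identical arrays, by 0.95 and 0.84, and with all arrays 0 were called (4 at an unadjusted p under 0.05). Socs3, the feedback inhibitor induced through STAT3, differed between PCN and CONT by 0.34 in WT and by 1.25 in Pxr-/-, and by 0.70 and 1.20 over 13 arrays. The 15 genes induced by interferon-gamma had median PCN differences of 0.22 in WT and 0.03 in Pxr-/-, and -0.24 and 0.03 without the near-identical arrays, with 0 called in either set (0 at an unadjusted p under 0.05). Of 10 other restriction factors, Trim30a was called higher in Pxr-/- without the near-identical arrays (0.96). The 9 genes that modify IFITM proteins or bind them had median PCN differences of -0.07 and 0.06 (-0.07 and 0.00 over 13 arrays), with 0 called (0 at an unadjusted p under 0.05).

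Some markers of neutrophils and monocytes were higher after PCN as well. The median PCN difference over the 8 markers was 0.07 (log2) in WT and 0.63 in Pxr-/-, and 0.40 and 0.59 without the near-identical arrays. Retnlg, a resistin-like protein of neutrophils, was called with all arrays, at 1.66 (SE 0.24) averaged over genotypes. Without the near-identical arrays S100a8 (3.74), S100a9 (3.84), which together make calprotectin, and Retnlg (1.99) were called. S100a8 was at 6.94 to 8.53 in WT CONT and at 10.87, 12.14, 6.90 and 10.07 in WT PCN, so that array 3 was at the level of the controls. It was at 5.95 to 7.26 in Pxr-/- CONT and at 9.52 to 10.70 in Pxr-/- PCN. The other 5 markers had smaller differences, none of them called. Over 13 arrays Cd14 differed by 0.48 in WT and 0.44 in Pxr-/-, Ccr2 by 0.32 and 0.30, Ly6c2 by -0.01 and 0.40, Csf3r by -0.04 and -0.02 and Ly6g by -0.10 and 0.74. With all arrays these were 0.06 and 0.39 for Cd14, 0.05 and 0.33 for Ccr2, 0.08 and 0.36 for Ly6c2, -0.08 and -0.02 for Csf3r and -0.66 and 0.87 for Ly6g. The averaged PCN difference was above 0 for 7 of 8 markers in both sets of arrays. The mean level of the list was 10.44 to 11.19 in WT CONT, 10.33 to 12.13 in WT PCN, 10.07 to 10.43 in Pxr-/- CONT and 11.28 to 11.92 in Pxr-/- PCN. Over 17 arrays it followed Ifitm1 with an r of 0.93 (0.87 within groups), Ifitm6 with 0.93 (0.89) and Ifitm3 with 0.51 (-0.02), and over 13 arrays with 0.93, 0.95 and 0.59. This mean is of log2 levels not scaled by gene, so S100a8 and S100a9, which varied most, weigh most in each r. In WT it averaged 10.79 in CONT and 11.52 in PCN, although the median marker differed by 0.07. Each r is therefore not a likeness to all 8 markers alike. The values within groups are of the 17 arrays, near-identical ones included, and were not taken over the 13 others. They may rest on the near-identical arrays, since for Ifitm1 with Ifitm6 the r within groups was 0.84 over 17 arrays and 0.08 over 13. WT PCN 3, of the near-identical arrays, was the lowest of its group for the list (10.33), Ifitm1 (11.97) and Ifitm6 (7.29). The interferon-stimulated genes followed Ifitm1 with an r of -0.17, Ifitm6 with -0.49 and Ifitm3 with 0.48, and over 13 arrays with -0.05, -0.44 and 0.43. The part of neutrophils and monocytes in the Ifitm differences was not tested.

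**Figure D4:**
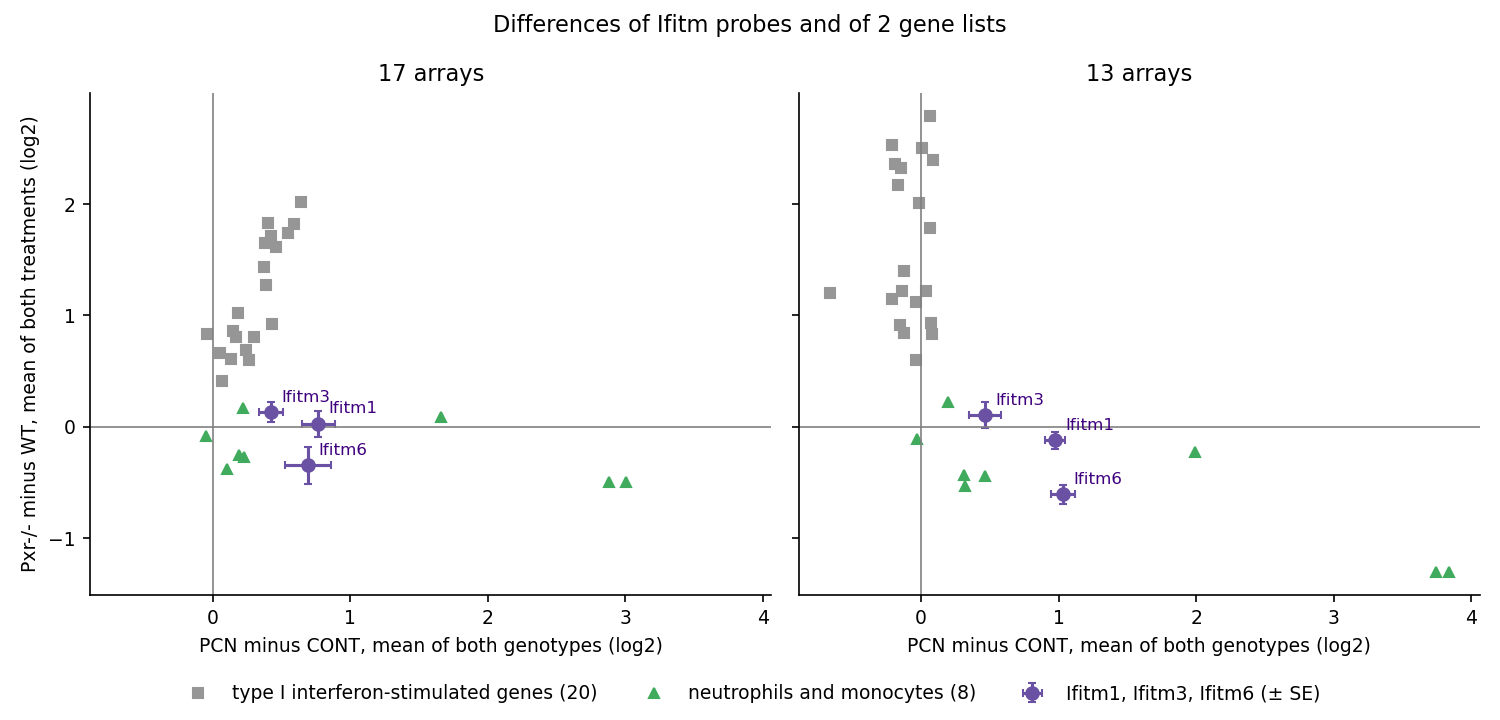
Difference of Pxr-/- from WT averaged over treatments (log2, vertical axis) against the difference of PCN from CONT averaged over genotypes (log2, horizontal axis) for 20 type I interferon-stimulated genes (squares), 8 neutrophil and monocyte markers (triangles) and Ifitm1, Ifitm3 and Ifitm6 (circles with SE), with 17 and with 13 arrays. The squares spread upwards along the genotype axis (median 0.97 and 1.31), the circles lie to the right along the PCN axis, and with 13 arrays S100a8 (3.74) and S100a9 (3.84) lie furthest right.

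**Figure D5:**
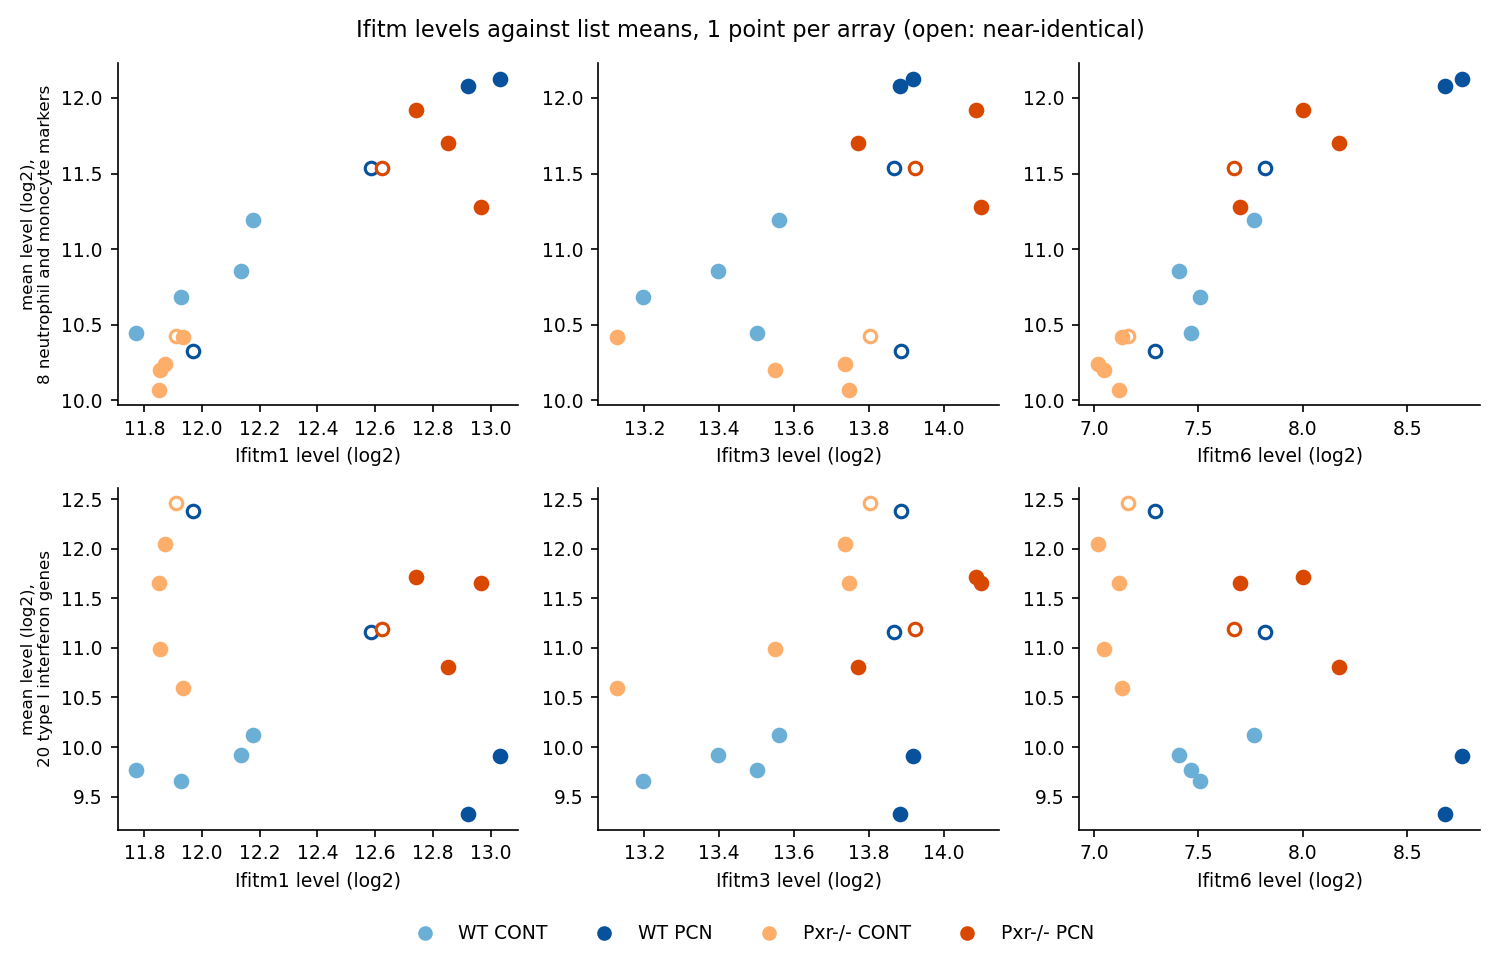
Mean level (log2, vertical axis) of the neutrophil and monocyte markers (top) and of the type I interferon-stimulated genes (bottom) against the level (log2, horizontal axis) of Ifitm1, Ifitm3 and Ifitm6, 1 point for each of 17 arrays, open for the near-identical ones. Ifitm1 and Ifitm6 go up with the neutrophil and monocyte list (r = 0.93 for both), Ifitm3 less so (0.51), and against the interferon list r is -0.17 for Ifitm1, 0.48 for Ifitm3 and -0.49 for Ifitm6. The list means are not scaled by gene, so S100a8 and S100a9, which vary most, weigh most in the top row.

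For the remaining cell types of the colon wall 0 markers were called for PCN averaged over genotypes, with all arrays or without the near-identical ones. The 6 macrophage markers followed Ifitm6 with an r of 0.76 (0.78 over 13 arrays, 0.75 within groups of the 17). Their median PCN difference was 0.11 in WT and 0.17 in Pxr-/- with all arrays, and 0.42 and 0.19 over 13, with 6 of 6 above 0 in WT in both. Their median difference of Pxr-/- from WT was -0.32 without PCN and -0.26 under PCN, and -0.35 and -0.50 over 13 arrays. The medians of these markers thus lay higher after PCN in WT and lower in Pxr-/-, as Ifitm6 did, and by more without the near-identical arrays. Not each marker was lower: over 13 arrays Adgre1 in Pxr-/- differed from WT by 0.05 without PCN. After PCN in Pxr-/- the median rose less than Ifitm6, which differed by 0.79 with all arrays and 0.88 over 13.

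The 7 colonocyte markers had median PCN differences of -0.04 in WT and -0.02 in Pxr-/- (0 at an unadjusted p under 0.05), and of 0.02 and 0.03 over 13 arrays. Endothelium (6 markers) had -0.10 and 0.04 with all arrays and -0.10 and 0.03 over 13. T cells had 0.07 and 0.22, then -0.04 and 0.14, and B cells -1.19 and 0.31, then -1.44 and 0.13. Fibroblasts had 0.16 and 0.16, then 0.20 and 0.13, with 2 at an unadjusted p under 0.05 for the averaged difference. Smooth muscle had 0.13 and -0.41, then 0.09 and -0.43. Crypt stem and cycling cells had -0.12 and 0.12, then -0.13 and 0.13, and goblet cells 0.11 and -0.12, then -0.11 and -0.14. For organs outside the colon the sign of the WT median differed between the sets of arrays. Pancreatic acinar cells (4 of 6 measured) had 1.19 in WT and -1.62 in Pxr-/- with all arrays, and -0.53 and -0.34 over 13, and hepatocytes had -0.17 and 0.16, then 1.1 and -0.01. The mean level of the acinar markers was highest on WT CONT 4 (16.74), which is among the 13 arrays. The part of all these cells in the Ifitm differences was not tested.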

How the data were processed

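RNA of whole colon, labelled as 17 samples, was measured on 1-colour Agilent Sureprint G3 mouse arrays and read with Feature Extraction 10.10.1.1. The deposited scanner files give each spot's intensity, and the authors' value table gives log2 values of the median signal, normalized between arrays and corrected for the wash bath (CrossNorm), for 36695 probes after their filter on dim spots. The value table was the main source, and scanner intensities, as deposited, gave detection, the Ifitm5 signal and alternative values.

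Values were fitted with limma 3.58.1 (R 4.3.3) with 1 mean per group over all 17 arrays, moderated by eBayes, and p-values were adjusted over all probes by the Benjamini-Hochberg method. A probe was called at an adjusted p of at most 0.05 and a fold above 1.5, the authors' thresholds. An SD is over the arrays of a group. A p-value sets a difference against the spread between arrays, pooled over the groups and moderated. With all 17 arrays the near-identical ones enter it as separate samples. The fit was tested on simulated data. The members, gene lists and comparisons were chosen with earlier results of these data known. The family's probes, all relatives named Ifitm and the 5 genes most like each member by r were named by rule, besides genes of the lists that were called. Genes of lists named with values but not called (Socs3, Cd14, Ccr2, Ly6c2, Csf3r, Ly6g) were picked with their values in view. The lists held markers or pathway genes by textbook knowledge, and 1 probe stood for each gene, the one with the highest mean. Promoters came from RefSeq (GRCm38.p6), probe sequences from the scanner files. Wash bath, slide, values, filters, replicate numbers, near-identical arrays and each array in turn were varied.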

Additional observations from a re-analysis of the deposited data

Results flagged for a closer look

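Of 168 groups of values looked at (a gene or list within 1 group of 4 or 5 arrays), 10 held an array further from the rest than the 95% limit of Dixon's test allows, where chance gives about 1 in 20. Among the 24 groups of the Ifitm probes themselves 1 was such a case, Ifitm10 on WT CONT 5, at 5.48 (log2) against 5.61 for the next array. Among the genes most like Ifitm1, Selp was at 5.34 on WT PCN 3 (next 6.31), Ackr1 at 8.27 on WT PCN 3 (next 8.83) and Stfa2l1 at 4.50 on Pxr-/- CONT 3 (next 4.96). Among the lists, the mean of the genes induced by interferon-gamma was 10.17 on Pxr-/- CONT 5 (next 10.96) and 10.30 on Pxr-/- PCN 3. The mean of the dispanins was 7.97 on Pxr-/- CONT 4 (next 7.86), and that of the neighbours of the cluster 10.53 on WT PCN 2 (next 10.45). Goblet cell markers were at 16.70 on WT PCN 1 (next 17.17), and markers of pancreatic acinar cells at 14.50 on Pxr-/- CONT 2 (next 7.30), of the near-identical arrays. The acinar markers were higher still on WT CONT 4 (16.74), not one of the near-identical arrays, and on WT PCN 3 (16.73), though neither passed the limit within its group. What set these arrays apart was not tested.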

How the results depend on the processing

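Of the 21 differences of Ifitm1, Ifitm3 and Ifitm6, 18 kept their sign under all of 31 alternatives. The other 3 were Ifitm1 for genotype averaged over treatments, Ifitm1 for genotype under PCN and Ifitm6 for the difference between the PCN effects, none of them called. Of 642 values 6 moved by more than the spread between replicates, all without the near-identical arrays, and 2 of these 6 changed sign: Ifitm1 for genotype under PCN went from 0.17 to -0.12, and Ifitm6 for the difference between the PCN effects from 0.19 to -0.31. Some alternatives changed only the p-values, the other probes or the arrays of groups outside a contrast. They could not change a difference, so the counts of kept signs and of unmoved values do not measure stability. The number of family probes called for PCN averaged over genotypes was 1 with all arrays. It was 0 with the wash bath as a term, with scanner median signal (with or without a filter), with processed signal, with normexp, with slide as a random or fixed block and with the replicate number as a block, and 2 without the near-identical arrays. Leaving out each array in turn gave 0 to 2, and 2 came without WT PCN 3. For PCN in Pxr-/- the number was 0 with all arrays, 2 with the arrays of that contrast alone and 2 without the near-identical arrays, and 0 to 1 with each array left out. For PCN in WT it was 0, 2 without the near-identical arrays, and 0 to 1 with each array left out. For genotype averaged over treatments it was 0, and 1 without the near-identical arrays. Over all probes, PCN averaged over genotypes gave 6 calls, 96 without the near-identical arrays and 78 without WT PCN 3. In both genotypes the 1 came without WT PCN 3. The cause was not tested.

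The deviations of 22 pairs of arrays that share a replicate number between groups correlated by -0.30 to 0.53 (median 0.06, 11 above 0.1). They were not set beside pairs of different number, so whether the numbers pair the arrays was not tested. The genotype difference of Ifitm6 under PCN rested on the WT PCN arrays 1 and 2. It was -0.25 with all arrays, -0.04 without WT PCN 1 and -0.07 without WT PCN 2. The number of arrays limits the precision, and for Ifitm5 the signal over background.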
